A study of Mus musculus with 8 samples.

Results

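The genes described here are 7 nuclear genes that control how much mitochondrial machinery a cell makes: Nrf1, Gabpa, Gabpb1, Esrra, Ppargc1a, Ppargc1b and Pprc1. They were chosen by name, with earlier results of these data known, and make up 7 of the 24460 genes counted in the series. The counts come from RNA-Seq of wild type mouse embryonic fibroblast (MEF) cells, kept sub-confluent and exposed to RHPS4, a small molecule that binds four-stranded G-quadruplex (G4) structures in nucleic acids. The groups are the untreated cells at 0 µM RHPS4 (3 libraries), cells at 2 µM (3 libraries) and cells at 10 µM (2 libraries), and by their labels they differ in dose alone. No cell type other than MEFs was sequenced, the exposure is given as 16 or 24 h without saying which holds for these libraries, and the labels do not say whether the libraries of a dose came from separate cultures, so p-values measure the spread between these libraries. The question addressed is whether the regulators of mitochondrial biogenesis changed in cells whose counts from mitochondrial DNA (mtDNA) took a lower share with RHPS4.

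Mitochondrial biogenesis is the growth of the mitochondrial mass of a cell, for which nuclear genes supply nearly all proteins, including the whole machinery that copies and transcribes mtDNA. NRF-1 (from Nrf1) and the GABP complex, also called NRF-2 (the DNA-binding subunit from Gabpa and the activating subunit from Gabpb1), bind promoters of respiratory chain genes and of mtDNA transcription factors, and the orphan receptor ERRα (from Esrra) does so at genes of fatty acid oxidation and the tricarboxylic acid cycle. The PGC-1 family of coactivators, PGC-1α (from Ppargc1a), PGC-1β (from Ppargc1b) and PRC (from Pprc1), binds no DNA itself and raises transcription through these factors. PGC-1α and PGC-1β are known for high levels in oxidative tissues such as muscle, heart and brown fat, and PRC for its response to growth signals in cultured cells.

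On the GRCm38 assembly (mm10) with GENCODE M21 genes, Nrf1 lies at chr6:30047988-30153458 (+), Gabpa at chr16:84834925-84863779 (+), Gabpb1 at chr2:126627442-126676337 (−), Esrra at chr19:6910977-6921813 (−), Ppargc1a at chr5:51454250-51567726 (−) and Pprc1 at chr19:46044886-46072915 (+). RefSeq promoter windows on GRCm38.p6, of 250 bases before and 50 bases after a start, were found for 6 of the 7 genes, in 8 windows. Because NRF-1 is known to bind a GC-rich palindrome and RHPS4 binds G4 structures, the letters of both were searched on both strands. The NRF-1 letters with a free base, GCGCNTGCG, were in 6.31% of all 32851 windows and in 2 of the 8 windows of the regulators, 1 of Gabpb1 and the window of Esrra. A G4 pattern, 4 runs of 3 or more G with loops of 1 to 7 bases, was in 18.6% of all windows and in 1 of the 8, a window of Gabpb1. These stretches are shown with the matched letters in capitals, read 5′ to 3′ on the strand of the gene, where the NRF-1 letters appear as their reverse complement.
Gabpb1, NRF-1 letters: cccgctgccgCGCAGGCGCcgggcgagcc
Esrra, NRF-1 letters: cctccgggtaCGCAGGCGCcgccgcctcc
Gabpb1, G4 pattern: GGGGCCAGTGGGGCGGAAACGGGCGCGGG

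The Gabpb1 stretches lie at chr2:126675788-126675816 and chr2:126675595-126675623, inside the GENCODE gene but in none of its exons, with the G4 pattern beginning 31 bases before the RefSeq start. The Esrra stretch lies at chr19:6921885-6921913, outside any GENCODE gene, with its capitals beginning 95 bases before the RefSeq start. The exact NRF-1 letters GCGCATGCG were in none of the 8 windows and in 1.75% of all windows. The same held for the letters CCGGAAGT, which ETS factors such as GABP are known to bind (3.89% of all windows), TNAAGGTCA for ERRα (1.28%) and TGACGTCA for CREB (1.79%). GC content ran from 46.3% in the second window of Nrf1 to 77% in its first, beside a median of 52.7% over all windows. Such matches describe letters only, since no binding was measured in these libraries.

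Sequencing depth was 10455965 to 26688121 counts per library. On the CPM scale (counts scaled to library size) 3 counts equal 0.287 in the smallest library and 0.112 in the largest, so low values carry the larger counting error, and PCR copies are not independent molecules. The first 0 µM library, the smallest, stood apart from the other two of its dose: it differed from them by a chi-square of 15.4 and 20.2 per degree of freedom, while those 2 differed from each other by 3.23. At 2 µM the pairs of libraries differed by 3.91, 5.71 and 10.6, and the 2 libraries at 10 µM differed by 8.63. Results of the regulators that turn on the first 0 µM library are given with and without it. For the pathway lists described further below, only the totals of genes that passed are. The mtDNA features took 13.2% to 14.4% of the counts at 0 µM, 7.4% to 8.26% at 2 µM and 5.33% to 6.32% at 10 µM. All 12 fibroblast markers were expressed, with a summed level of 11927 to 14172 CPM over all libraries that was higher in every 0 µM library than in any treated one, whereas the marker lists of macrophage, epithelial, endothelial, muscle, adipocyte and neuron summed to 1.01 to 11.7 CPM. Of the muscle list Myod1, Myog, Myf5 and Ckm, and of the adipocyte list Adipoq, Plin1, Cidea and Lep, stayed under 1 CPM in every library. The remaining gene of each list, Des and Fabp4, did not, with means of 0.913 and 0.807 CPM.

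Counts were scaled to CPM with edgeR's TMM factors, which correct each library's total for genes that take an unusual share of it, and divided by the summed length of a gene's exons wherever genes are compared with each other. At 0 µM the order by mean level per kb was Gabpa, Pprc1, Nrf1, Gabpb1, Esrra, Ppargc1a and Ppargc1b. The means were 16.9 ± 1.7 CPM per kb (SD, n = 3) for Gabpa, 12.5 ± 3.08 for Pprc1, 5.31 ± 0.215 for Nrf1, 4.03 ± 0.41 for Gabpb1, 2.93 ± 0.198 for Esrra, 1.39 ± 0.134 for Ppargc1a and 0.433 ± 0.0496 for Ppargc1b. Gabpa lay above 80.1% of the 14176 tested genes with a known length, Nrf1 above 51.8% and Ppargc1b above 19.3%. By this length the libraries of neighbours in the order did not overlap at 0 µM or at 2 µM, where the order was the same. The place of Nrf1 depends on the length used, since its exons sum to 10282 bases and its longest transcript has 4042. With the longest transcript as length, the Nrf1 and Pprc1 libraries overlapped at 0 µM, and Nrf1 lay above Pprc1 at 10 µM. At 10 µM, by summed exon length, Esrra (3.59 ± 0.224 CPM per kb, SD, n = 2) came level with Gabpb1 (3.56 ± 0.358). These were the only neighbours at that dose whose libraries overlapped.

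**Figure D1:**
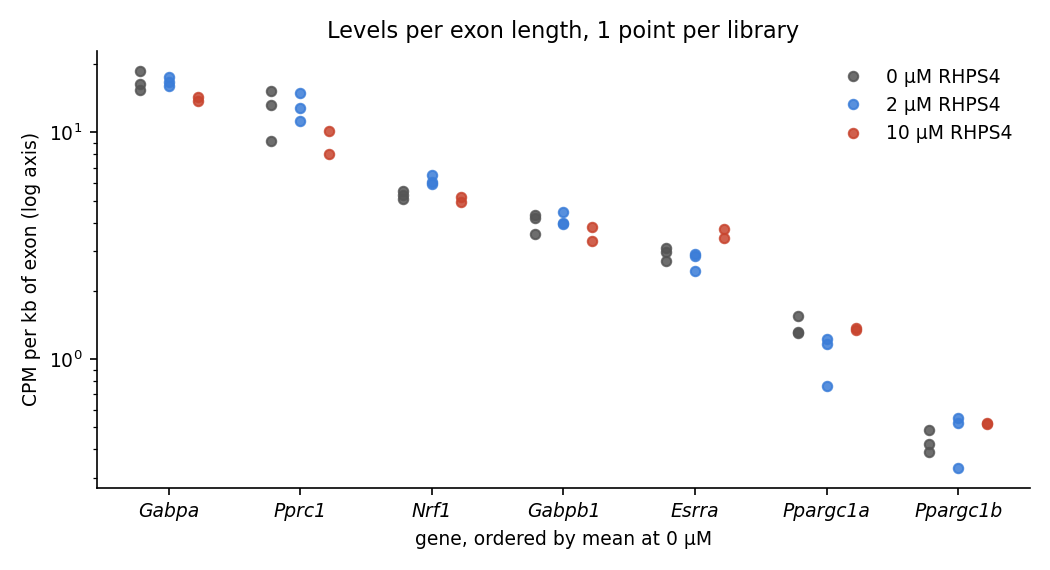
Level of each regulator in every library, in TMM-scaled CPM per kb of exon on a log axis, with genes ordered by their mean at 0 µM and points coloured by RHPS4 dose. Gabpa and Pprc1 lie highest and Ppargc1b, near 0.43 CPM per kb at 0 µM, lowest, and the Esrra points at 10 µM reach those of Gabpb1.

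Within the PGC-1 family, PRC transcripts made up most of the message per length. In untreated cells Pprc1 held 84.2%, 88.4% and 88.2% of the summed level per kb of the family, Ppargc1a 12.2%, 8.77% and 8.98%, and Ppargc1b 3.59%, 2.83% and 2.83%. The share of Pprc1 was 87.8% to 91.1% at 2 µM and 80.9% to 84.5% at 10 µM, so the 10 µM libraries lay below the 2 µM ones and overlapped the 0 µM ones. These shares do not depend on the scaling between libraries. The transcripts of the GABP subunits stood at 3.57 to 5.26 Gabpa per Gabpb1 (per kb) at 0 µM, 3.75 to 4.41 at 2 µM and 3.77 to 4.18 at 10 µM, ranges that overlap. The size of this ratio rests on the summed exon lengths, 7752 bases for Gabpb1 and 5687 for Gabpa. It is lower in every library with the longest transcripts, which have 4153 and 4987 bases.

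None of the 7 regulators was a differentially expressed gene (DEG) at either dose. To be a DEG a gene needed a fold change over 1.5 together with an adjusted p under 0.01 in edgeR's quasi-likelihood test, fitted over all 8 libraries and the 14296 genes that passed its filter on low counts, with Benjamini-Hochberg adjustment over those genes. All 7 regulators passed that filter. At 2 µM against 0 µM 0 of 7 were DEGs, where 0.497% of all tested genes were, and 0 of 7 had an adjusted p under 0.05, where 4.16% did. At 10 µM against 0 µM the counts were again 0 of 7 and 0 of 7, beside 3.09% and 13.9% of all genes. Between 10 µM and 2 µM 0 of 7 were DEGs, beside 5.51% of all genes, and 2 of 7, Nrf1 and Esrra, had an adjusted p under 0.05, beside 23.4%. At an unadjusted p under 0.05 the counts were 2, 3 and 4 of 7, with 21.3%, 29.4% and 36.5% of all genes. DESeq2 also gave 0 DEGs among the 7 in each comparison.

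The libraries of the groups did not overlap for 2 of 7 regulators between 2 µM and 0 µM (25.7% of all genes), for 3 between 10 µM and 0 µM (42.9%) and for 6 between 10 µM and 2 µM (51.8%). The median log2 fold change of the 7 was 0.03 at 2 µM, −0.07 at 10 µM and −0.22 between 10 µM and 2 µM, where the medians over all tested genes were −0.01, 0.02 and 0.03. The log2 fold changes ran from −0.41 (Ppargc1a) to 0.22 (Nrf1) at 2 µM and from −0.47 (Pprc1) to 0.30 (Esrra) at 10 µM. The 95% interval of the fold change, not adjusted for the number of genes, lay within 1.5-fold of no change in both directions for 5 of 7 regulators at 2 µM, for 5 at 10 µM and for 3 between the doses, as it did for 9213, 7917 and 7148 of the 14296 tested genes. The comparisons at 2 µM and at 10 µM share the same 0 µM libraries.

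**Figure D2:**
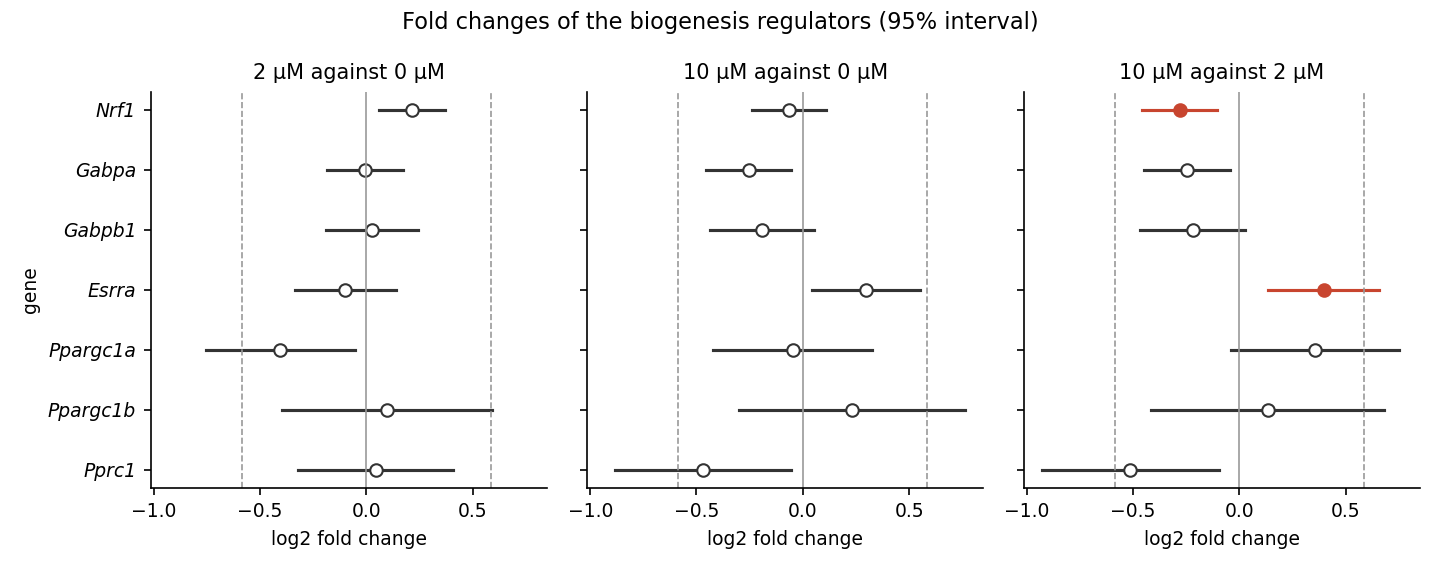
Log2 fold change of each regulator in the 3 comparisons, with points for the edgeR estimate, bars for its 95% interval and dashed lines at 1.5-fold. Filled points mark an adjusted p under 0.05, which only Nrf1 (−0.28) and Esrra (0.40) have, both between 10 µM and 2 µM.

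Nrf1, which encodes NRF-1, was highest at 2 µM. Its levels were 56.9, 54.4 and 52.5 CPM at 0 µM, 61.0, 66.8 and 62.0 CPM at 2 µM, and 50.9 and 53.2 CPM at 10 µM. Every 2 µM library lay above every other library, and the 10 µM libraries overlapped the untreated ones. At 2 µM the log2 fold change was 0.22 ± 0.071 (SE), with a 95% interval of 1.04 to 1.29-fold and an adjusted p of 0.111, so it did not pass the test. That p was 0.0396 without the first 0 µM library, at a log2 fold change of 0.25. At 10 µM against 0 µM the value was −0.07 ± 0.079 (adjusted p = 0.619). Between 10 µM and 2 µM Nrf1 fell by 0.28 on the log2 scale (SE 0.08, adjusted p = 0.0257), with an interval of 0.729 to 0.929-fold. That call was lost without the second 2 µM library (−0.24, adjusted p = 0.0984), without the first (−0.29, 0.0815) or the second (−0.35, 0.0541) 10 µM library, and under scaling by total counts (−0.15, 0.198).

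**Figure D3:**
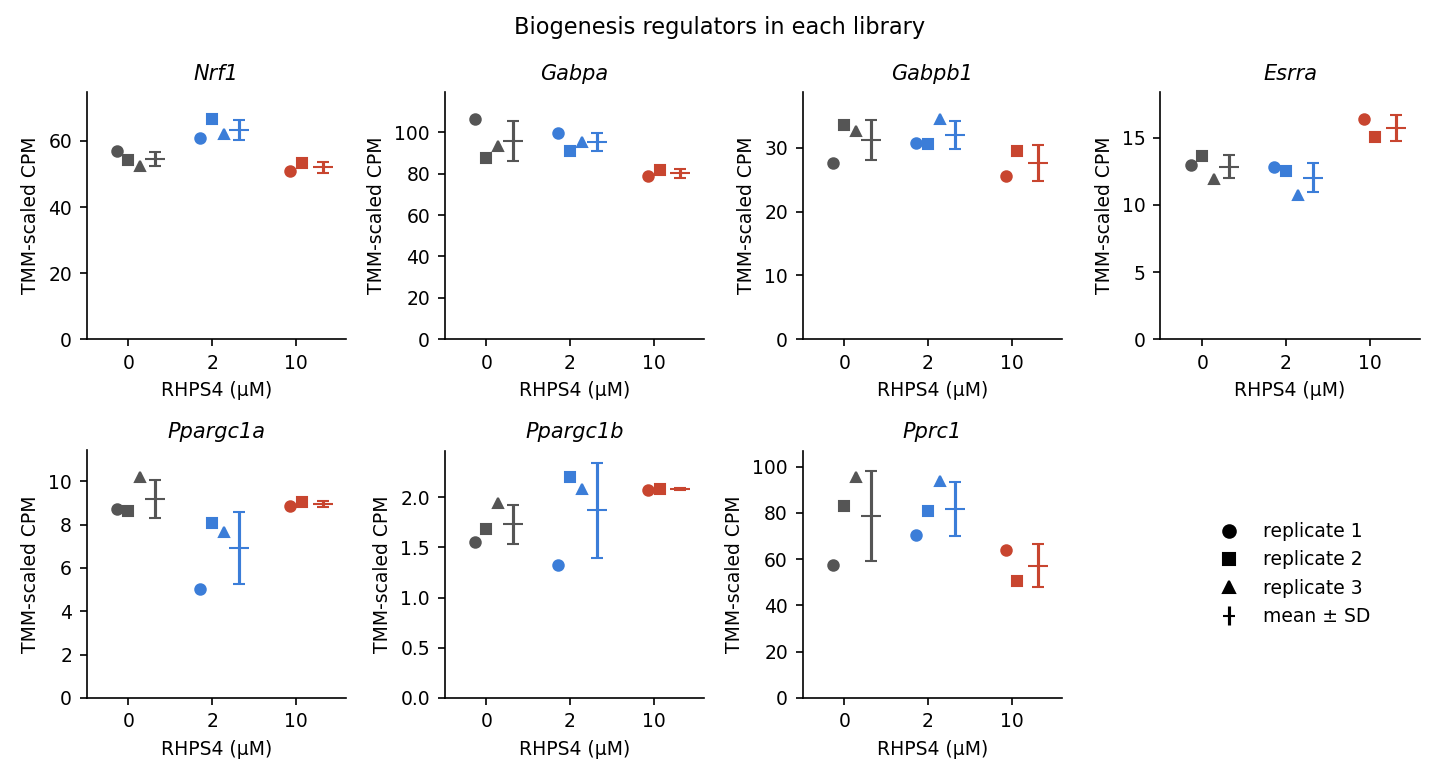
Level of each regulator in every library, in TMM-scaled CPM, against the RHPS4 dose, with a marker shape for the replicate number and the mean ± SD beside the points. Nrf1 is highest at 2 µM, Esrra is highest at 10 µM with 16.4 and 15.0 CPM, and Pprc1 varies from 57.5 to 95.5 CPM among the untreated libraries.

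Esrra, which encodes the orphan receptor ERRα, was highest at 10 µM. It was measured at 13.0, 13.6 and 11.9 CPM at 0 µM, 12.8, 12.6 and 10.8 CPM at 2 µM, and 16.4 and 15.0 CPM at 10 µM. Both 10 µM libraries lay above all 6 others, and the 0 and 2 µM libraries overlapped. Esrra was 1.32-fold higher at 10 µM than at 2 µM (log2 fold change 0.40 ± 0.118, SE; interval 1.10 to 1.58-fold; adjusted p = 0.0326). Against 0 µM the log2 fold change at 10 µM was 0.30 ± 0.116, which missed the threshold (adjusted p = 0.112), and at 2 µM it was −0.10 ± 0.108 (adjusted p = 0.647). The call between the doses was lost in 5 of the 8 fits that left out 1 library, of which the fit without the first 10 µM library gave 0.29 (adjusted p = 0.212), without the second 0.42 (0.088), without the second or the third 2 µM library 0.43 (0.0649) and 0.29 (0.123), and without the second 0 µM library 0.37 (0.0529). It was also lost with DESeq2 (0.35, adjusted p = 0.113) and with all expressed genes kept (0.35, adjusted p = 0.0651), and with scaling by total counts the rise reached adjusted p = 0.00934 against 0 µM too. Its exons share 91 bases (2.07%) with Mir6990 on the same strand and 73 bases (1.66%) with Trmt112 on the other strand. Trmt112 ran opposite to Esrra between the doses (−0.43 ± 0.138, adjusted p = 0.0424).

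Gabpa and Gabpb1, which encode the subunits of GABP, did not pass the test in any comparison. Gabpa, the DNA-binding subunit, stood at 107, 87.7 and 93.4 CPM at 0 µM, 99.4, 91.0 and 95.2 CPM at 2 µM, and 78.6 and 81.7 CPM at 10 µM. The 10 µM libraries lay below all others, and the 0 and 2 µM libraries overlapped. The log2 fold change was −0.01 ± 0.081 at 2 µM (adjusted p = 0.971) and −0.25 ± 0.092 at 10 µM (interval 0.729 to 0.963-fold, adjusted p = 0.0896), and between the doses it was −0.25 ± 0.092 (adjusted p = 0.0733). With an offset for GC content the last pair reached adjusted p = 0.0439 and 0.0405. Of 18 alternatives the first of them passed in 1 and the second in 5, and with scaling by total counts, which moves all genes, the first was −0.04 (adjusted p = 0.767). Without the first 0 µM library the value was −0.20 at 10 µM against 0 µM (adjusted p = 0.0904) and −0.28 between the doses (0.0131). The exons of Gabpa share 397 bases (6.98%) with those of Atp5j on the other strand, an ATP synthase subunit gene that was at −0.05 ± 0.076 at 10 µM (adjusted p = 0.71). The strand setting of the counting is not given in the sources used here.

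Gabpb1, the subunit that carries the activating domain, was measured at 27.6, 33.5 and 32.6 CPM at 0 µM, 30.8, 30.7 and 34.6 CPM at 2 µM, and 25.6 and 29.6 CPM at 10 µM. The 10 µM libraries lay below the 2 µM ones and overlapped the untreated ones. Its log2 fold changes were 0.03 ± 0.099 at 2 µM (adjusted p = 0.902), −0.19 ± 0.112 at 10 µM (0.285) and −0.22 ± 0.113 between the doses (0.186).

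Pprc1, which encodes the coactivator PRC, had the most spread among untreated libraries of the 7 genes. Its levels were 57.5, 82.9 and 95.5 CPM at 0 µM, 70.3, 80.6 and 93.7 CPM at 2 µM, and 63.7 and 50.6 CPM at 10 µM. The 10 µM libraries lay below all 2 µM libraries, but the first 0 µM library, the one that stood apart, fell between them. The log2 fold change was 0.04 ± 0.165 at 2 µM (adjusted p = 0.907) and −0.47 ± 0.188 at 10 µM (interval 0.542 to 0.962-fold, adjusted p = 0.124). Without the first 0 µM library it was −0.66 ± 0.138 at 10 µM, with an adjusted p of 0.00714, which is a DEG by the thresholds used, whereas without the third 0 µM library it was −0.30 (adjusted p = 0.352). Between 10 µM and 2 µM the value was −0.51 ± 0.189 (adjusted p = 0.0721), and without that untreated library, which enters this comparison through the estimate of the spread and the scaling, it was −0.55 (adjusted p = 0.00872). DESeq2 gave −0.50 at 10 µM against 0 µM (adjusted p = 0.0411) and −0.55 against 2 µM (0.0132). Of 18 alternatives, 2 reached an adjusted p under 0.05 against 0 µM and 4 against 2 µM. Without the first 10 µM library these values were −0.68 and −0.73, and without the second they were −0.34 and −0.40. Between the doses the value was −0.42 without the third 2 µM library (adjusted p = 0.168) and −0.38 with scaling by total counts (0.177). The exons of Pprc1 share 177 bases (2.82%) with Ldb1 on the other strand, which was at −0.01 ± 0.081 at 10 µM (adjusted p = 0.945).

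Ppargc1a, which encodes PGC-1α, was low in these cells, with 57 to 257 counts per library. It stood at 8.72, 8.62 and 10.2 CPM at 0 µM, 5.02, 8.07 and 7.67 CPM at 2 µM, and 8.85 and 9.06 CPM at 10 µM. All 2 µM libraries lay below all others, the first of them by the widest margin. The log2 fold change was −0.41 ± 0.160 at 2 µM (interval 0.593 to 0.963-fold, adjusted p = 0.175), −0.05 ± 0.171 at 10 µM (0.883) and 0.36 ± 0.18 between the doses (0.175), none of which passed. Without the first 2 µM library the value at 2 µM was −0.24 (adjusted p = 0.452).

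Ppargc1b, which lies on chromosome 18 and encodes PGC-1β, was the lowest of the 7 in every group, with 15 to 49 counts per library. Its levels were 1.56, 1.68 and 1.95 CPM at 0 µM, 1.32, 2.20 and 2.08 CPM at 2 µM, and 2.08 and 2.09 CPM at 10 µM. Both 10 µM values were above the untreated range and inside that of the 2 µM libraries. Its log2 fold changes were 0.10 ± 0.225 at 2 µM (adjusted p = 0.839), 0.23 ± 0.242 at 10 µM (0.563) and 0.13 ± 0.25 between the doses (0.744). The interval at 10 µM ran from 0.813 to 1.70-fold, so a rise of 1.5-fold could not be told from no change at this depth.

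Pearson's r of the regulators' log2 CPM over the 8 libraries ran from −0.761 (Gabpb1 with Esrra) to 0.745 (Gabpb1 with Pprc1) over the 21 pairs, with a median of 0.00881. These values are a description only, since the libraries differ in dose and depth and both enter r. Esrra had negative values with Nrf1 (−0.615), Gabpa (−0.699), Gabpb1 (−0.761) and Pprc1 (−0.714). The genes most like Nrf1 over the 8 libraries were Hgh1 (r = 0.984), Tnfrsf12a (0.983) and Cdc7 (0.983), and those most like Esrra included C030034I22Rik (0.970) and Vat1 (0.967). For Gabpa they were Ptges (0.990), Sap18 (0.980) and Gnai3 (0.978), and for Gabpb1 Gm20219 (0.925), Dyrk1a (0.920) and Def8 (0.913). For Pprc1 they were Pphln1 (0.993), Papola (0.986) and Znrf3 (0.983), for Ppargc1a Hhat (0.970), Dpy19l3 (0.962) and Adprh (0.961), and for Ppargc1b Zfp109 (0.961), Nudt7 (0.957) and Klrb1a (0.940). No regulator was among the 3 genes most like another one.

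The genes around the regulators were described with 4 lists from general knowledge: 19 related DNA-binding factors, 30 genes whose products modify or assist PGC-1 proteins, 17 targets of NRF-1 and GABP, and 18 targets of ERRα and PGC-1. Of these, 18, 30, 17 and 14 were tested. The exceptions were Esrrb, and Perm1, Cpt1b, Fndc5 and Ucp1, which are genes of muscle or brown fat. Rose and fell are used for an adjusted p under 0.05. The results of single list genes below are from all 8 libraries. Over the 4 lists 4 genes passed at 2 µM against 0 µM (4.16% of all genes did), and 16 passed without the first 0 µM library.

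**Figure D4:**
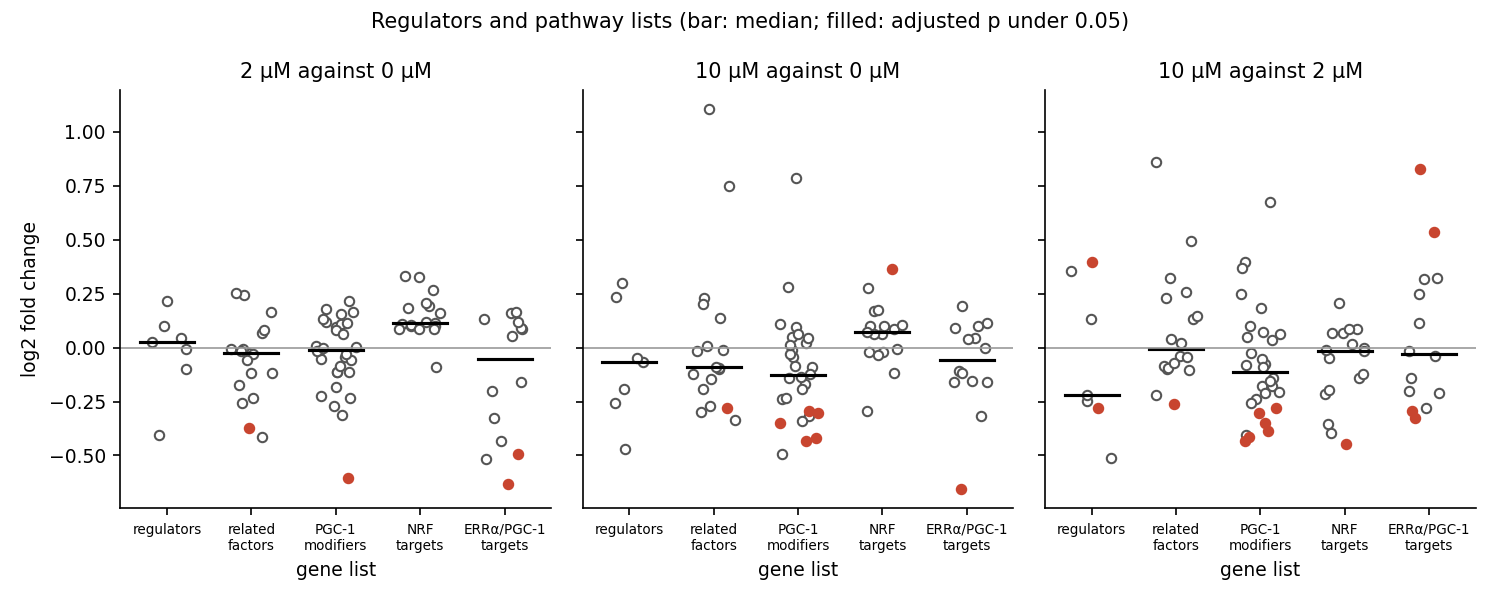
Log2 fold change of every tested gene of the regulators and of the 4 pathway lists in the 3 comparisons, with a bar at each list's median and filled points at an adjusted p under 0.05. Most points are open and near 0. The filled points of the 30 PGC-1 modifiers, 5 at 10 µM against 0 µM and 6 between the doses, all lie below 0. Of all genes 13.9% and 23.4% passed in these comparisons, in either direction.

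Among the targets of NRF-1 and GABP 0 of 17 passed at 2 µM (4.16% of all genes passed), with a median log2 fold change of 0.11. At 10 µM 1 rose (13.9% of all genes passed), 0 fell and the median was 0.07. The gene that rose was Alas1, the first enzyme of heme synthesis, with 21.8, 23.8 and 23.8 CPM at 0 µM, 27.2, 26.2 and 24.5 CPM at 2 µM, and 30.8 and 29.1 CPM at 10 µM, where its log2 fold change was 0.37 ± 0.091 (adjusted p = 0.0218). The groups of Alas1 did not overlap at any dose. Between 10 µM and 2 µM, where 23.4% of all genes passed, 1 of 17 fell, Cycs, which encodes cytochrome c (−0.45 ± 0.143, adjusted p = 0.0435), and its 10 µM libraries (72.3 and 79.0 CPM) lay within the untreated range (70.4 to 102 CPM).

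The targets that serve mtDNA and its transcripts did not pass the test in any comparison. Tfam, which packages mtDNA and activates its transcription, stood at 61.4, 46.6 and 51.7 CPM at 0 µM, 59.8, 56.0 and 55.6 CPM at 2 µM, and 53.2 and 57.3 CPM at 10 µM. The groups of Tfam overlapped, and its log2 fold change was 0.11 ± 0.097 at 2 µM (adjusted p = 0.555), 0.06 ± 0.108 at 10 µM (0.747) and −0.05 ± 0.109 between the doses (0.797). The mitochondrial RNA polymerase gene Polrmt was at −0.09 ± 0.076 (0.533), −0.02 ± 0.084 (0.899) and 0.07 ± 0.085 (0.603). Tfb1m, an rRNA methyltransferase gene, was at 0.11 ± 0.149 (0.708), 0.10 ± 0.164 (0.724) and −0.01 ± 0.167 (0.966). Tfb2m, a transcription initiation factor gene, was at 0.10 ± 0.143 (0.732), −0.29 ± 0.165 (0.262) and −0.39 ± 0.167 (0.111). Of these only Tfb2m had 10 µM libraries that lay below all others.

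Among the targets of ERRα and PGC-1 2 of 14 fell at 2 µM (4.16% of all genes passed), Vegfa and Pdk4, and the median was −0.05. Vegfa, an angiogenic growth factor, had 102, 94.6 and 104 CPM at 0 µM, 71.8, 69.2 and 71.8 CPM at 2 µM, and 104 and 102 CPM at 10 µM. It was lower in the 2 µM libraries than in all others, by a log2 fold change of −0.50 ± 0.067 (adjusted p = 0.0031) against 0 µM, and rose by 0.54 ± 0.074 from 2 µM to 10 µM (adjusted p = 0.000615). Pdk4, a kinase that turns off pyruvate entry into the tricarboxylic acid cycle, had 11.8, 12.7 and 15.9 CPM at 0 µM, 8.37, 8.15 and 9.75 CPM at 2 µM, and 13.8 and 17.6 CPM at 10 µM. It followed the same course, with −0.63 ± 0.146 at 2 µM (adjusted p = 0.0376), and was the only DEG of the list between the doses (0.83 ± 0.16, adjusted p = 0.00427). Each of the 2 genes is also known to answer other regulators.

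At 10 µM against 0 µM, where 13.9% of all genes passed, 1 of these 14 targets fell, Ucp2, an inner membrane carrier (−0.66 ± 0.18, adjusted p = 0.0338), with a list median of −0.06. Between 10 µM and 2 µM 2 rose, Vegfa and Pdk4, and 2 fell (23.4% of all genes passed), with a median of −0.03. The 2 that fell were Sod2, the superoxide dismutase of the mitochondrial matrix (−0.33 ± 0.093, adjusted p = 0.0271), and Idh3a, a subunit of isocitrate dehydrogenase (−0.29 ± 0.086, adjusted p = 0.0313).

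Of the 30 genes that modify or assist PGC-1 proteins 1 fell and 0 rose at 2 µM, with a median of −0.01, 5 fell and 0 rose at 10 µM, with a median of −0.13, and 6 fell and 0 rose between the doses, with a median of −0.11. Of all tested genes 4.16%, 13.9% and 23.4% passed in these comparisons, 216 higher and 379 lower at 2 µM, 974 higher and 1017 lower at 10 µM, and 1646 higher and 1700 lower between the doses. Lpin1, a phosphatidate phosphatase and coactivator of PGC-1α, was the only DEG of the list at 2 µM (−0.60 ± 0.09, adjusted p = 0.00582). It had 51.1, 53.0 and 54.7 CPM at 0 µM, 36.4, 31.4 and 36.7 CPM at 2 µM, and 42.8 and 36.4 CPM at 10 µM, and was lower in every treated library than in any untreated one, with −0.42 ± 0.1 at 10 µM (adjusted p = 0.0189).

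The AMP-activated kinase, which phosphorylates PGC-1α, is encoded by several of these genes. Its catalytic subunit gene Prkaa1 had 154, 141 and 139 CPM at 0 µM, 143, 141 and 136 CPM at 2 µM, and 116 and 111 CPM at 10 µM. At 10 µM it fell by 0.35 on the log2 scale against 0 µM (SE 0.077, adjusted p = 0.0129) and by 0.30 against 2 µM (SE 0.077, adjusted p = 0.016). The regulatory subunit gene Prkab1 was at −0.29 ± 0.084 (adjusted p = 0.0403) against 0 µM and −0.41 ± 0.085 (0.00572) against 2 µM. The other subunit genes of this kinase on the list, Prkaa2, Prkab2, Prkag1 and Prkag2, did not pass in any comparison. Camkk2, a kinase upstream of AMP-activated kinase, fell between the doses (−0.28 ± 0.072, adjusted p = 0.0163).

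Mapk14, which encodes the p38α kinase, was at −0.30 ± 0.074 (adjusted p = 0.0206) against 0 µM and −0.39 ± 0.075 (0.00421) against 2 µM. Hcfc1, a host cell factor that binds the PGC-1 family, was at −0.43 ± 0.118 in both comparisons (0.032 and 0.0225). Sirt1, the deacetylase that acts on PGC-1α, had 29.6, 30.6 and 33.5 CPM at 0 µM, 34.3, 34.1 and 36.3 CPM at 2 µM, and 29.4 and 25.3 CPM at 10 µM, and fell between the doses (−0.35 ± 0.099, adjusted p = 0.0262). The 4 lists held 18, 30, 17 and 14 tested genes, and 13.9% of all genes passed at 10 µM against 0 µM. The total of pathway genes with an adjusted p under 0.05 at 10 µM against 0 µM was 8, and it was 15 without the first 0 µM library, 1 without the second or the third, 4 without the second 2 µM library and 0 without the second 10 µM library.

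Among the related DNA-binding factors 1 of 18 passed in each comparison, where 4.16%, 13.9% and 23.4% of all genes did. These were Thra, the thyroid hormone receptor α gene, at 2 µM (−0.37 ± 0.073, adjusted p = 0.0221), Atf2, a CRE-binding factor gene, at 10 µM (−0.28 ± 0.077, adjusted p = 0.0348), and Yy1, a zinc finger factor known to work with PGC-1α, between the doses (−0.26 ± 0.088, adjusted p = 0.0499). The medians of the list were −0.03, −0.09 and −0.01. Its log2 fold changes ran from −0.41 to 0.25, from −0.33 to 1.10 and from −0.26 to 0.86, and no gene of it rose.

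Beside these results the mtDNA share of the counts was lower at each higher dose, and the summed fibroblast markers were lower in treated than in untreated libraries but overlapped between 2 µM and 10 µM. Their part in the regulators' values was not tested. In bulk libraries fewer cells of a type and less RNA per cell cannot be told apart.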

How the data were processed

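Total RNA of MEF cells was depleted of nuclear rRNA and sequenced by the authors as stranded libraries. Per the labels and the study's methods, reads were trimmed with Trim Galore and cutadapt, aligned to mm10 with STAR 2.5.2a and counted per gene with featureCounts from unique fragments. The authors deposited raw counts, 1 file per library, used here without change. The strand setting and annotation of the counting are not given in the sources used here. Members and lists were chosen with earlier results of these data known.

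Tests used edgeR 4.0.16 under R 4.3.3 (filterByExpr, TMM, glmQLFit, glmQLFTest), with dose as the only factor over all 8 libraries. The standard error was the log2 fold change divided by the square root of F. The study's thresholds for DEGs were kept, a fold change over 1.5 at an adjusted p under 0.01. Tables used Python 3.11.15, numpy 2.4.6 and pandas 2.3.3. Gene positions and exon lengths came from GENCODE M21, which matched 24048 of the 24460 genes (98.32%) by symbol.

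Named genes were the 7 regulators, up to 6 genes of each list with the smallest p among those at an adjusted p under 0.05, list DEGs, Tfam, Tfb1m, Tfb2m and Polrmt, and the 3 genes most like each regulator by Pearson's r of log2 CPM (prior count 2). One gene that this rule names is not reported here. Trmt112, Mir6990, Atp5j and Ldb1 were named for their shared exons. Alternatives were DESeq2 1.42.0, scaling by RLE, by TMM over nuclear genes or by total counts, keeping every gene with a count or only genes with 10 or more counts in all libraries, fitting the compared groups alone, a block for the replicate number, an offset for GC content, block and offset together, and leaving out each library in turn. The procedure was tested on simulated data with known changes. Library pairs of 1 dose differed by more than sampling noise, so none was treated as a repeat deposit of another, which does not show that cultures were separate.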

Additional observations from a re-analysis of the deposited data

Results flagged for a closer look

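Nrf1 and Esrra are listed because the effect of RHPS4 at 10 µM differed from that at 2 µM by a direct test of the libraries of those doses (edgeR's quasi-likelihood test, Benjamini-Hochberg adjustment over 14296 genes). For Nrf1 the difference, 10 µM minus 2 µM, was −0.28 on the log2 scale (adjusted p = 0.0257), lower in 2 of 2 libraries at 10 µM than in all 3 at 2 µM. For Esrra it was 0.40 (adjusted p = 0.0326), higher in 2 of 2 libraries than in all 3. Of all tested genes 23.4% passed the same threshold in this comparison, and in 51.8% the groups did not overlap. Both calls were lost when either 10 µM library or the second 2 µM library was left out.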

How the results depend on the processing

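No value of a regulator passed an adjusted p of 0.05 in the opposite direction under any alternative, and of 378 values 350 kept their side of that threshold, 15 passed it only under the alternative and 13 no longer passed. The sign differed in 19 of the 378, none of which passed and none of which exceeded 0.166 in size. Of the 7 regulators, the number of DEGs was 0 in each comparison under every alternative except that it was 1 (Pprc1) at 10 µM against 0 µM without the first 0 µM library, a range of 0 to 1 over the fits without 1 library. The number at an adjusted p under 0.05 ranged over those fits from 0 to 1 in each comparison with untreated cells and from 0 to 4 between the treated groups, with 0 when either 10 µM library or the second 2 µM library was left out. With total counts only 1 passed at 2 µM (Nrf1), 1 at 10 µM (Esrra) and 1 from 2 to 10 µM (Esrra). That scaling moved the median log2 fold change of all genes by 0.08, 0.21 and 0.14 in the order of the comparisons. Relative to the median gene, Nrf1 was at −0.31 and Esrra at 0.37 between the doses with either scaling. At 10 µM against 0 µM 1 regulator passed with DESeq2 (Pprc1) and 1 with a GC content offset (Gabpa). Between the doses 4 passed when only the 2 groups compared were fitted, and with the replicate block 1 (Nrf1) passed, with Esrra at 0.33 (adjusted p = 0.0707) and Pprc1 at −0.37 (0.133). The block gave −0.31 (0.251) for Pprc1 at 10 µM against 0 µM.

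Of all genes 4.16% had an adjusted p under 0.05 at 2 µM and 13.9% at 10 µM, each against 0 µM, and 23.4% from one dose to the other. The pathway genes that passed, from 4 lists with 18, 30, 17 and 14 tested genes, numbered 4, 8 and 12 in these comparisons. Without 1 library they ranged from 1 to 16, 0 to 15 and 4 to 20, highest each time without the first 0 µM library. With total counts only they numbered 7 at 2 µM and 22 at 10 µM, and at 10 µM 2 with only the groups compared, 3 with the replicate block and 4 with block and GC content offset. The causes were not tested. Same-numbered libraries deviated together with r of 0.199, 0.0845 and 0.161 between 0 and 2 µM and of −0.145 to −0.0212 for pairs with 10 µM, so the numbers were not taken as pairs. The order of the 7 genes by mean level per kb at 0 µM was the same with the longest transcript as length and with total counts only. With the longest transcript, however, the Nrf1 and Pprc1 libraries overlapped at 0 µM, and Nrf1 lay above Pprc1 at 10 µM. Depth limits Ppargc1b most, and with 2 libraries at 10 µM each fit without 1 of them assumes that the lone library varies like the other groups.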
